A study of Danio rerio with 16 samples.

Results

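Brain gene expression was compared between zebrafish of the strain labelled SH and those of the strain labelled Gaighatta, on all 8 arrays that carry these labels out of the 16 of the series. Each strain had 2 female and 2 male pools, and each array held the RNA of 1 pool. All 7922 probe sets of the deposited table that are not array controls were tested. The zebrafish were adults of 4 to 6 months, bred and kept under the same conditions at 28 °C with 14 h of light and 10 h of darkness. All had been observed singly in a test of fear-related behavior and were anesthetized before the brain was taken. A pool was the joint homogenate of the whole brains of the 2 to 5 fish of 1 tank, so single fish cannot be told apart and p-values measure the spread between pools. The labels give strain, sex and replicate only, and the study describes the strain named SH as domesticated and that named Gaighatta as wild. The other 8 arrays carry the labels TM1 and Nadia and entered the fit only for the estimate of the spread, and their means are given where they place a difference.

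The strain names need care before any direction is read. The values of the arrays labelled SH are printed in the study's own tables under the name Nadia, and those of the arrays labelled Gaighatta under TM1. This held for 1645 of 1645 probe sets that could be compared, within 0.0001. TM1 is a domesticated strain that carries a green fluorescent protein (GFP) transgene driven by a β-actin promoter, and Nadia is a wild strain. The GFP control probe set AFFX-Dr-M62653-1_at read 8.58, 10.15, 10.46 and 10.43 in the 4 pools labelled Gaighatta and 2.80 to 2.97 in the 4 pools labelled SH. The pools labelled Gaighatta were thus high for the transgene of TM1 in all 4 cases, with F1 the lowest. The pools labelled TM1 read only 2.99 to 3.36 in the same GFP probe set. By the study's tables and by GFP, the pools labelled Gaighatta are those of TM1, the domesticated strain. By the study's tables, the pools labelled SH are those of Nadia, the wild strain. Strain names below are nevertheless those of the labels, so rearing history must not be read from them. Because 1 strain stands on each side, rearing history, transgene and all other differences between these strains cannot be told apart.

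Strains of zebrafish have long been bred apart, in laboratories or in the wild, and carry different alleles at many genes. A whole-genome duplication in the ancestor of teleost fishes left many zebrafish genes in paired copies, marked a and b in their symbols. On the array used, a transcript is read by short probes matched to a reference sequence, and the values of the probes in a set are combined into 1 log2 value, so that a difference of 1 stands for a 2-fold difference. An allele that departs from the probes can lower the value of a probe set at the same amount of RNA. The study removed a large share of its probe sets for signs of such differences between strains, and these are included here. Since the array values do not separate sequence from amount, the word expression below stands for the level that the probe set read.

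The whole brain samples carried the transcripts of brain cells at high levels in both strains. The neuronal SNARE protein gene snap25a read 11.99 to 12.18 in the SH pools and 12.31 to 12.41 in the Gaighatta pools. Mean levels of 9 neuron markers were 9.69 to 9.81 and 9.84 to 9.97, and those of 13 radial glia markers 9.19 to 9.25 and 9.22 to 9.27. Pools of the same strain correlated at 0.975 to 0.987 (SH) and 0.973 to 0.988 (Gaighatta) across probe sets, and pools of different strains at 0.950 to 0.965. A pair of pools stood apart from their strain. SH M1 had the highest keratin and the lowest muscle and pituitary levels among SH pools, and Gaighatta F1 had muscle transcripts far above the other Gaighatta pools. Values without these 2 pools, a comparison chosen after seeing the data, are given where they matter. Calls of genes given with their standard error held when any 1 pool was left out unless the pools that ended them are given. This is not stated for ctsba or for the smaller called difference of aga, ppargc1b, cd99l2, rnf146 and hoxb8a, which were not followed through the leave-outs.

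Of 7922 probe sets, limma called 1354 (17.1%) different between SH and Gaighatta, with an adjusted p below 0.05. Of these, 611 (7.71%) were higher in SH and 743 (9.38%) higher in Gaighatta. The differences were mostly small. The median absolute difference among the called probe sets was 0.52 (log2), or 1.43-fold, against 0.17 among all, where the median standard error was 0.12. A difference of at least 2-fold was called for 198 probe sets (2.5%), 106 higher in SH and 92 higher in Gaighatta, 4-fold for 45 and 8-fold for 16. The larger side of the 2-fold calls changed without SH F2 (94 and 98) or SH M2 (98 and 99). For 1198 (15.1%) the 4 pools of one strain were also all above the 4 of the other. Without a test, this held for 1884 of the 7922 probe sets (23.8%). In 96 of the 198 the lower strain mean was under 4.98, the first quartile of mean levels over the table, where array values approach their floor and differences are compressed. Leaving out any 1 of the 8 pools gave 999 to 1149 called probe sets, and leaving out SH M1 and Gaighatta F1 together gave 861, of which 235 were at least 2-fold. Each call rests on 4 pools a side. The fit had no term for sex, so its spread holds differences between female and male pools as well as between tanks. With sex as a term, 1466 probe sets were called.

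**Figure D1:**
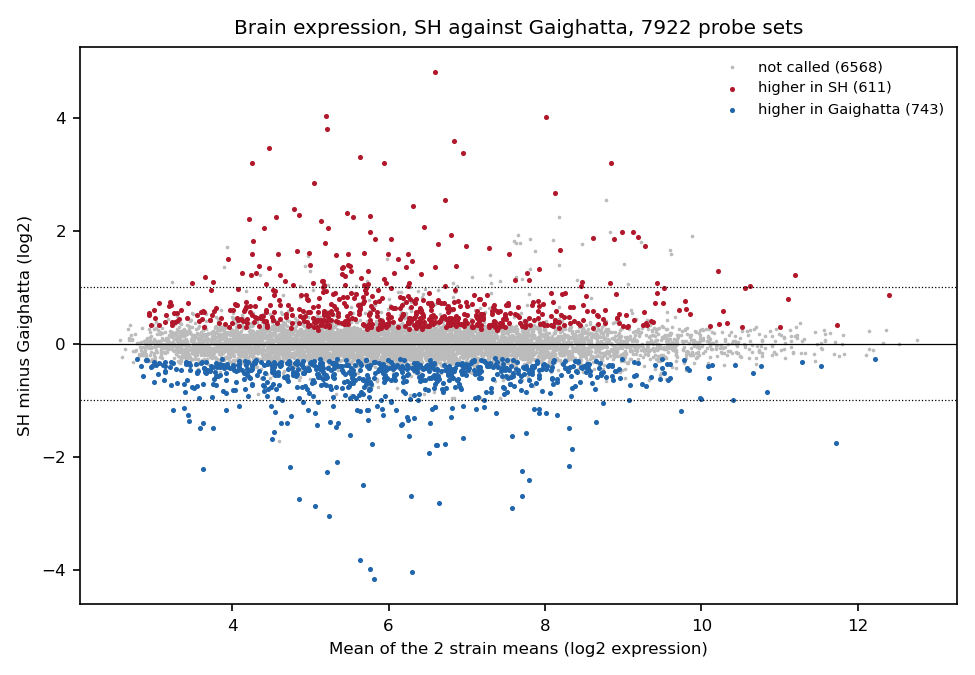
SH minus Gaighatta difference (log2, y axis) against the mean of both strain means (log2 expression, x axis) for 7922 probe sets, with called probe sets in colour and dotted lines at 2-fold. Red points (611) were higher in SH and blue points (743) higher in Gaighatta, and the 16 calls of 8-fold or more lie on both sides.

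The 3 largest named increases in SH were in scamp5a, mhc1ufa and 1 probe set of wls. The synaptic vesicle membrane protein gene scamp5a read 9.53, 10.53, 9.72 and 10.28 in the SH pools F1, F2, M1 and M2, and 5.95, 6.03, 6.36 and 5.68 in the Gaighatta pools in the same order. Every SH pool was above every Gaighatta pool by more than 3 units, and the difference was 4.01 ± 0.42 (SE; 16.1-fold, adjusted p = 5.16e-06). mhc1ufa, a class I major histocompatibility gene, read 7.61, 7.22, 6.60 and 7.07 in SH and 3.51, 3.16, 3.52 and 3.06 in Gaighatta, a difference of 3.81 ± 0.35 (adjusted p = 1.41e-06). The Gaighatta values of mhc1ufa lie near the floor of the table, whose lowest value is 2.27. For lgals3bp.1, a secreted galectin-binding glycoprotein, SH read 8.83, 8.20, 8.86 and 8.68 and Gaighatta 4.92, 5.66, 5.58 and 4.92, a difference of 3.37 ± 0.22 (10.4-fold, adjusted p = 3.05e-08). Its arrays labelled TM1 and Nadia had means of 8.89 and 7.86, so that Gaighatta was the strain apart.

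A long noncoding RNA and a chromatin enzyme followed. linc-epb41l4a, also listed as libra, which in zebrafish directs the decay of a microRNA, read 10.02, 10.03, 11.06 and 10.69 in SH and 6.82, 7.33, 7.90 and 6.91 in Gaighatta. The male pool M1 was the highest of each strain, and the difference was 3.21 ± 0.28 (9.23-fold, adjusted p = 6.15e-07). The histone methyltransferase gene ash1l was tight in SH (9.35 to 9.62) and wide in Gaighatta (5.55 to 7.43), with a difference of 2.68 ± 0.29 (adjusted p = 6.68e-06). Gaighatta M2 was the low end of that range. ptgr1.1, a prostaglandin reductase, read 8.44, 8.02, 7.43 and 8.13 in SH and 5.31 to 5.54 in Gaighatta (difference 2.55 ± 0.16, adjusted p = 2.06e-08). The strain means of ptgr1.1 in the arrays labelled TM1 and Nadia were 5.52 and 5.64, so SH was the strain that stood out for this gene.

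Genes of the cytoskeleton, of cell junctions and of neuronal kinase signaling were also among the largest. septin8b, a filament-forming GTPase, read 6.37 to 6.80 in SH and 4.04 to 4.52 in Gaighatta, a difference of 2.31 ± 0.13 (4.96-fold, adjusted p = 5.05e-09). cdk5, a kinase of neuronal migration and synapses, read 7.19, 6.37, 6.37 and 6.75 in SH against 4.21 to 4.57 in Gaighatta, a difference of 2.25 ± 0.33. LOC559664, which RefSeq lists as a pseudogene, read 5.68 to 6.31 in SH and 3.54 to 3.93 in Gaighatta. wls, lin7c and erbin belong to this group by 1 of their probe sets and are described with the other probe sets of these genes below. The remaining named increases, pomca and the myosin light chain genes myl13 and myl10, are given with the pituitary and muscle markers below.

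The largest difference of all was in a probe set without a gene symbol in the platform table. This probe set, which the study annotates as similar to cathepsin B, a lysosomal protease, read 9.44, 8.85, 8.92 and 8.81 in SH and 4.30, 4.11, 3.73 and 4.64 in Gaighatta. The difference was 4.81 ± 0.30 (28.0-fold, adjusted p = 2.06e-08). The arrays labelled TM1 and Nadia had means of 9.12 and 8.92, so the low level was that of Gaighatta. A probe set of the same array cluster is assigned to the cathepsin B gene ctsba (named after its values were seen) and differed the other way, by -1.27 ± 0.20 (adjusted p = 0.000288). Its pools read 7.52 ± 0.34 in SH and 8.79 ± 0.03 in Gaighatta (SD, n = 4 pools). A pair of probe sets of 1 cluster, suffixed s_at and x_at and annotated by the study as the uncharacterized gene zgc:92049, were higher in SH by 4.03 ± 0.22 and 3.20 ± 0.27.

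Among the 15 largest named increases in Gaighatta were a muscle gene, a neuropeptide receptor and regulators of ion exchange and mitochondria. klhl41b, a kelch protein of the sarcomere, read 3.93, 3.81, 3.56 and 3.55 in SH and 6.92, 6.33, 7.0 and 6.78 in Gaighatta, a difference of -3.04 ± 0.24 (adjusted p = 1.77e-07), with the SH values near the floor of the table. Its direction was opposite to that of all 19 skeletal and smooth muscle markers, and Gaighatta F1, the pool rich in muscle transcripts, was within the range of the other Gaighatta pools. npy8br, a receptor for neuropeptide Y, read 3.48 to 3.71 in SH and 6.02, 7.14, 6.50 and 6.31 in Gaighatta (difference -2.87 ± 0.19, adjusted p = 2.49e-08). The arrays labelled TM1 and Nadia had means of 3.68 and 3.41, so npy8br was near the floor in the other 3 strains and above it in Gaighatta alone.

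chp1, an EF-hand protein that binds sodium-proton exchangers, read 4.81, 5.49, 5.13 and 4.33 in SH and 7.48 to 7.76 in Gaighatta, a difference of -2.70 ± 0.20 (adjusted p = 1.28e-07). ppargc1b, a coactivator of mitochondrial gene transcription, was higher in Gaighatta by both of its probe sets, at 6.24 to 6.89 against 8.73 to 9.33 in one (difference -2.41 ± 0.33) and 6.16 to 7.02 against 7.56 to 8.02 in the other (-1.0 ± 0.19). The order of the strains was therefore the same in both, while the sizes were unequal. add3a, an adducin of the spectrin and actin cortex, differed by -2.26 ± 0.24 in one probe set (adjusted p = 6.57e-06) and by -0.23 ± 0.25 in the other (adjusted p = 0.574). aga, a lysosomal amidase, read 10.52 to 11.23 in SH and 12.51 to 12.74 in Gaighatta (-1.75 ± 0.18), and its second probe set also differed (-0.35 ± 0.10, adjusted p = 0.0259).

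cldng (-2.92) and cav1 (-1.78) are also among these 15 and are described below with their other probe sets. Of the remaining genes, ccdc39, which sets the spacing of inner dynein arms in motile cilia, read 5.37 to 5.77 in SH and 7.27 to 7.82 in Gaighatta (adjusted p = 1.71e-07). cd99l2, an adhesion protein of leukocyte passage, was higher in Gaighatta by both probe sets, at -1.87 ± 0.20 and -0.97 ± 0.13. rgs5a, which restrains G protein signaling in vessel mural cells, read 6.27, 7.61, 6.62 and 6.53 in SH and 7.93, 8.04, 8.26 and 9.38 in Gaighatta, so that SH F2 lay just below the Gaighatta range. Its second probe set differed by -0.36 ± 0.15 and was not called (adjusted p = 0.119). rnf146, a ubiquitin ligase that acts on Wnt and ADP-ribosylated proteins, was called in 2 of 3 probe sets (-1.64 ± 0.12 and -1.45 ± 0.14), with the third at -0.35 ± 0.13 (adjusted p = 0.0694). ppdpfa, a factor of progenitor cell differentiation, and the uncharacterized LOC560947 and LOC100002043 were also among the 15, with differences of -1.59, -2.18 and -1.69.

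Among probe sets without a symbol, the 3 largest increases in Gaighatta had differences of -4.16 ± 0.61, -4.05 ± 0.62 and -3.99 ± 0.43. The first 2 belong to 1 array cluster that the study leaves without a gene name, with SH F2 the highest SH pool and Gaighatta M1 the lowest Gaighatta pool in both, and the third is described with the antigen presentation genes. Of the 30 genes named for their size, 28 kept their call in every alternative computed. The exceptions were myl13 and myl10, whose calls were lost without SH F1, F2 or M2, with differences of 1.91 to 2.85 and 1.84 to 2.58 over the alternatives, and under a fitted mean-variance trend or unmoderated variances.

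**Figure D2:**
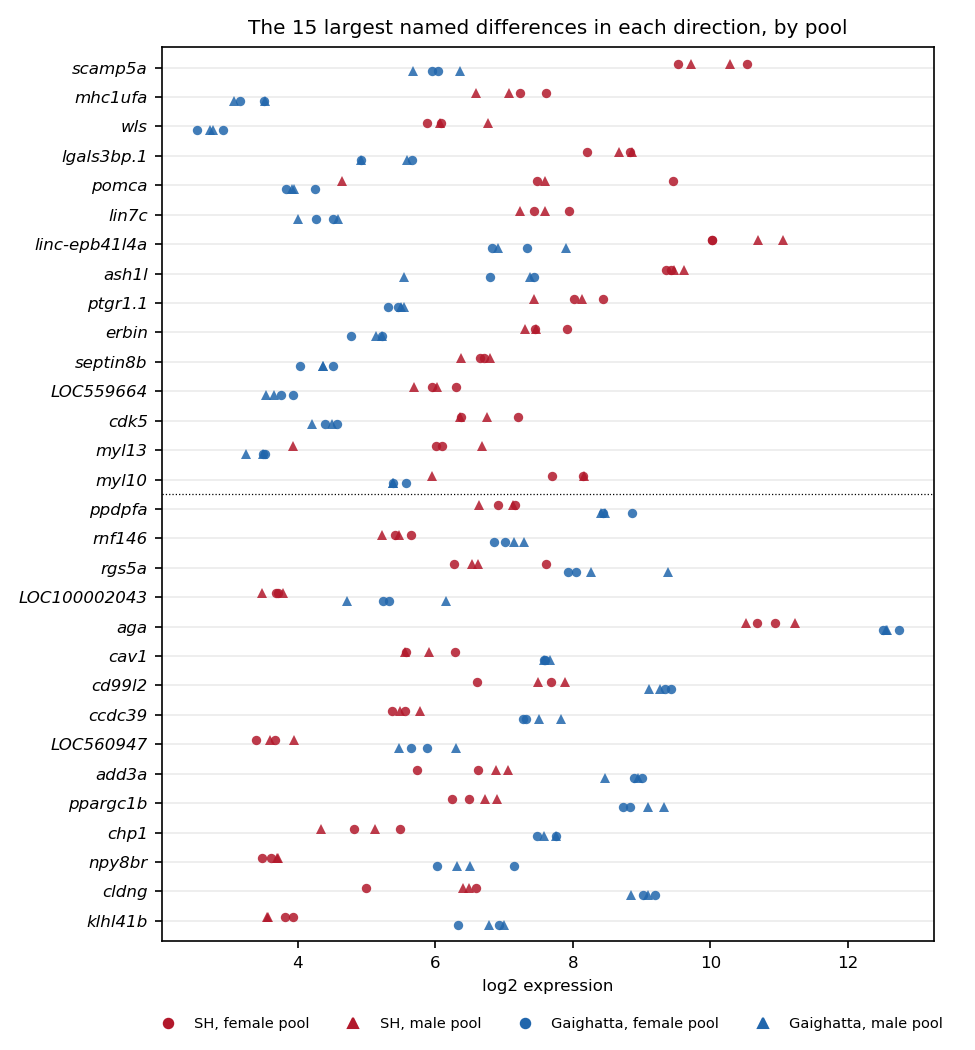
log2 expression (x axis) of the 15 largest named differences in each direction, 1 row per gene, with circles for female and triangles for male pools of SH (red) and Gaighatta (blue). The groups of 4 do not overlap in any row by the rule that chose the genes, and SH M1 lies next to the Gaighatta pools for pomca, myl13 and myl10.

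Several genes are read by more than 1 probe set, so that the difference in one set can be put beside that in the others. Of 598 such genes, 164 had at least 1 called probe set, and in 125 of these only some of their probe sets were called. All were called in 39, and in 33 of these in the same direction. Of the 28 such genes with a called 2-fold difference, 7 had all probe sets called in 1 direction. For wls, the carrier that brings Wnt proteins to the cell surface, the probe sets differed widely in size. One of its probe sets read 5.87, 6.09, 6.77 and 6.06 in SH and 2.54 to 2.91 in Gaighatta, a difference of 3.46 ± 0.28 (adjusted p = 2.86e-07), with the Gaighatta values near the floor of the table. The other 2 probe sets of wls differed by -0.08 ± 0.30 and 0.08 ± 0.13. lin7c, a scaffold of synapses and epithelial junctions, had the same pattern, with 3.21 ± 0.26 in one probe set and -0.26 ± 0.15 and -0.09 ± 0.13 in the others.

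Calls in opposite directions were found in 10 genes. For cldng, a claudin of tight junctions, the probe set S4_x_at read 6.59, 5.00, 6.49 and 6.40 in SH and 8.84 to 9.20 in Gaighatta (-2.92 ± 0.41, adjusted p = 0.000133). Its S5_a_at set read 10.34, 8.70, 10.11 and 9.10 in SH and 7.94, 8.28, 7.88 and 6.61 in Gaighatta (1.88 ± 0.50, adjusted p = 0.0164), and S3_at did not differ beyond its error (-0.02 ± 0.12). The suffix x marks sets with probes that also match other transcripts, so that values of cldng can hold signal of related claudins. The S5_a_at call was lost without SH F1, SH M1 or Gaighatta M2, with values of 1.45 to 2.17 over the alternatives. erbin, a scaffold of cell junctions, was higher in SH by 2.44 ± 0.15 in one set and lower by -0.50 ± 0.11 in the other. nectin3b, a cell adhesion molecule, differed by 1.15 ± 0.12 and -0.61 ± 0.12, and rabac1, which acts in Rab-dependent vesicle transport, by 0.64 ± 0.12 and -0.62 ± 0.14, the second lost only without SH M1 and Gaighatta F1 together (-0.72 to -0.51). For the selenoprotein gene selenoo1 the values were -0.77 ± 0.16 and 0.40 ± 0.12, the second lost without SH F1, SH F2, SH M1, Gaighatta F1, F2 or M2 (0.31 to 0.51 over the alternatives). slc25a14, a mitochondrial carrier, had -1.42 ± 0.35 and -1.29 ± 0.39 in one cluster and 0.41 ± 0.11 in another, the middle one lost without SH F2, SH M2, Gaighatta F2, M1 or M2 (-1.61 to -1.06). The uncharacterized si:dkey-260j18.2 had 1.18 ± 0.11 in one set and -0.43 ± 0.08 in another. The caveolar coat gene cav1 was called in 3 of 3 probe sets, all higher in Gaighatta, at -1.78 ± 0.18, -0.58 ± 0.11 and -0.58 ± 0.12. The values of single probes were not used here, and the reason for unequal probe sets was not tested.

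**Figure D3:**
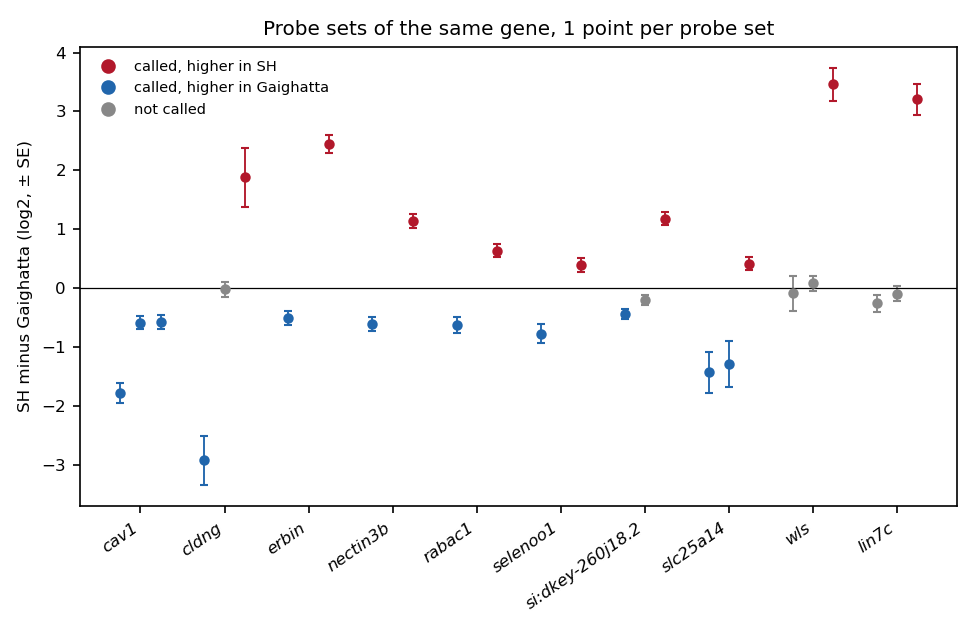
SH minus Gaighatta difference (log2, ± SE, y axis) for each probe set of 10 genes with several probe sets (x axis), red and blue where called and grey where not. wls and lin7c each have 1 probe set above 3 and the others near 0, while cldng and erbin have called sets on both sides of 0.

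In the lists that follow, each gene counts once, by its brightest probe set. Of the 4922 genes so measured, 772 (15.7%) were called, 378 (7.68%) higher in SH and 394 (8%) higher in Gaighatta, and the median difference over all genes was -0.01. Antigen presentation genes had 8 of 18 members called, 4 in each direction, with a median of 0.25. Major histocompatibility molecules carry peptides to the cell surface, class I from proteasomes and class II from endosomes, and zebrafish are known for haplotypes that hold different sets of these genes. mhc1ufa was higher in SH, as given above, whereas the class I gene mhc1zba was higher in Gaighatta (5.66 to 6.94 against 7.0 to 7.60, -1.13 ± 0.23). The class II gene mhc2daa was near the floor in SH, at 2.56 to 2.78, and read 3.50 to 4.25 in Gaighatta (-1.17 ± 0.22, adjusted p = 0.00149). The probe set that the study annotates as the class II gene mhc2dab read 2.87, 4.33, 4.82 and 3.05 in SH and 7.52 to 8.06 in Gaighatta.

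With mhc2d4b (-0.47) the called class II genes of the list were all lower in SH, while the immunoproteasome genes were divided. psmb9a, a catalytic subunit, was higher in SH by 0.61 ± 0.16 (adjusted p = 0.0135), as were psmb12 (0.58 ± 0.18) and the activator psme1 (0.49 ± 0.15), while psmb10 was lower by -0.46 ± 0.13. Calls of psmb12 (0.51 to 0.65 over the alternatives), psme1 (0.42 to 0.60) and psmb10 (-0.57 to -0.37) were lost in several leave-outs of 1 pool, psmb10 without SH F1 or SH M2, psmb12 without SH F1, SH F2, SH M1, Gaighatta F1, F2 or M2, and psme1 without SH F2, SH M1, SH M2, Gaighatta F1, F2 or M1. The list had 5 to 7 called members without any 1 pool, with 5 without SH M1, SH M2, Gaighatta F1 or Gaighatta F2. Of 10 interferon response genes 0 were called by limma and 0 had an unadjusted p under 0.05 (irf7 -0.31, isg15 0.10), and 0 were called with unmoderated variances but 1 with the 8 arrays alone. Of 14 markers of microglia and leukocytes, 1 was called. This was aif1l, an actin-binding protein gene, at 8.09 to 8.20 in SH and 7.20, 7.13, 4.29 and 7.15 in Gaighatta, and the low value of Gaighatta M1 sets the size of its difference of 1.69 ± 0.44, which was 0.97 without that pool and still called.

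Of 30 synaptic vesicle and SNARE protein genes, 8 were called, scamp5a and syngr2b higher in SH and 6 higher in Gaighatta, with a median of -0.09. synprb, a synaptoporin of vesicle membranes, read 3.85 to 4.08 in SH and 5.47, 4.89, 4.61 and 5.24 in Gaighatta (-1.11 ± 0.19, adjusted p = 0.000717). The synaptophysin gene sypb differed by -0.61 ± 0.13 in the probe set that was called and by -0.55 ± 0.19 in the other (adjusted p = 0.06). vamp5, a vesicle SNARE, read 5.62 to 5.73 in SH and 6.24 to 6.34 in Gaighatta (-0.61 ± 0.09). stx6, a SNARE of the trans-Golgi network, read 3.33 to 3.86 in SH and 4.29, 3.80, 4.74 and 5.73 in Gaighatta, where the strains overlapped, and its call (-1.11 ± 0.30) was lost without SH M2 and ranged from -1.39 to -0.74. The difference of snap25a was small (-0.26 ± 0.08, adjusted p = 0.0411) and its call was lost without SH F1, F2 or M1 or any 1 of the Gaighatta pools (-0.29 to -0.17 over the alternatives). The count of 8 was 5 without both SH M1 and Gaighatta F1.

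In the GABA and glutamate list, 3 of 17 genes were called, all higher in SH, and the median was -0.02. abat, the enzyme that breaks down the inhibitory transmitter GABA, read 10.12, 9.93, 10.12 and 10.39 in SH and 7.99, 8.27, 8.48 and 8.25 in Gaighatta (1.89 ± 0.18, 3.72-fold, adjusted p = 1.98e-06). The gap between the nearest pools of abat was more than 1 unit. The glutamate receptor subunit genes gria2a (8.74 to 8.92 against 7.89 to 8.53) and grik1a (5.45 to 5.69 against 5.20 to 5.40) differed by 0.59 ± 0.15 and 0.35 ± 0.11. The grik1a call was lost without SH F1, F2 or M2 or Gaighatta F1, M1 or M2 (0.33 to 0.41). Among 22 neuropeptide and hypothalamic hormone genes, npy8br was the 1 called. Among 35 genes of axon guidance and neural adhesion, 2 were higher in SH and 3 in Gaighatta (median 0.06). l1cama, an adhesion molecule of axons, read 4.60, 4.73, 5.62 and 5.05 in SH and 6.34, 6.37, 6.16 and 5.85 in Gaighatta (-1.18 ± 0.21, adjusted p = 0.00102). The repellent guidance genes slit2 and sema3aa were higher in SH by 0.62 ± 0.12 and 0.54 ± 0.11. nlgn1, a neuroligin of synaptic contacts, was higher in Gaighatta (-0.71 ± 0.21), with a call lost without SH F1, SH M1, Gaighatta F1, F2 or M1 (-0.87 to -0.52). The list had 3 calls without SH M1, Gaighatta F2 or Gaighatta M1.

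The cholinergic gene slc18a3a, which loads acetylcholine into vesicles, was higher in SH by 0.61 ± 0.15 (adjusted p = 0.0121), a call lost without SH M1 and Gaighatta F1 together (0.52 to 0.67). Markers of radial glia, the stem cells of the adult fish brain, had 2 of 13 members called, in opposite directions. gfap, the intermediate filament of astroglia, read 7.22, 7.42, 7.62 and 7.18 in SH and 6.51 to 6.73 in Gaighatta (0.73 ± 0.14, adjusted p = 0.00136). cyp19a1b, the brain aromatase that makes estrogens in radial glia, read 9.35, 9.47, 9.87 and 9.32 in SH and 10.63, 10.71, 10.37 and 10.13 in Gaighatta (-0.96 ± 0.14, adjusted p = 0.000214). The other 2 probe sets of cyp19a1b differed by 0.06 ± 0.22 and 0.08 ± 0.12. In whole brain RNA, fewer cells of a type and less RNA per cell cannot be told apart. Of 9 neuron markers, sypb and snap25a were called.

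Hox genes, transcription factors that keep the identity of hindbrain and spinal cord segments, were higher in SH as a group. Of 14 measured, 8 were called, all higher in SH, 13 had a positive difference and the median was 0.52 against -0.01 for all genes. hoxb5b read 6.57, 5.93, 6.32 and 6.24 in SH and 4.94, 4.97, 5.37 and 5.56 in Gaighatta, a difference of 1.06 ± 0.22 (adjusted p = 0.00364). hoxb5a read 6.91, 6.32, 6.99 and 6.49 against 5.74 to 6.08 (0.80 ± 0.18), and hoxc4a 5.62 to 5.95 against 4.77 to 5.21 (0.79 ± 0.18). No SH pool overlapped a Gaighatta pool in any of the 8 called genes, which also held for 675 of the 772 called among all genes. hoxb8a was called in both of its probe sets, at 0.68 ± 0.16 and 0.43 ± 0.14, and hoxc5a differed by 0.70 ± 0.22. hoxb3a, hoxb6a and hoxa4a differed by 0.57, 0.53 and 0.50. The 6 not called were hoxb7a (-0.14), hoxa3a (0.06), hoxd4a (0.08), hoxb4a (0.17), hoxb6b (0.29) and hoxc8a (0.46).

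The mean of the 14 hox genes was 5.02, 4.84, 5.21 and 5.06 in the SH pools and 4.41, 4.57, 4.70 and 4.59 in the Gaighatta pools, so that the strains did not overlap. SH M1 was the highest pool and Gaighatta F1 the lowest. Separate list means were not particular to hox genes. Those of proteasome subunits (7.22 to 7.35 in SH, 7.06 to 7.20 in Gaighatta) and cartilage and bone (4.98 to 5.20, 4.65 to 4.86) did not overlap either. The same held, with Gaighatta higher, for neurons (9.69 to 9.81 in SH, 9.84 to 9.97 in Gaighatta). Without SH M1, SH M2 or Gaighatta F1, 5 hox genes were called. Without SH M1 and Gaighatta F1 together 1 was called, hoxb5b, while the median difference was 0.41. The call of hoxc5a was lost without SH F1, SH M1, SH M2, Gaighatta F1, F2 or M2 (0.61 to 0.79 over the alternatives). Those of hoxb5a, hoxc4a and the hoxb8a probe set with a difference of 0.68 were lost only without SH M1 and Gaighatta F1 together.

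Pituitary hormone genes, which mark a gland attached beneath the brain, had higher strain means in SH. pomca, the precursor of corticotropin and melanocortins, read 7.47, 9.45, 4.64 and 7.59 in SH and 3.82, 4.25, 3.94 and 3.92 in Gaighatta, a difference of 3.31 ± 0.75 (9.91-fold, adjusted p = 0.00607). The SH pools were all above the Gaighatta pools but spread widely, with F2 the highest and M1 the lowest. gh1, growth hormone, read 9.12, 12.09, 5.41 and 7.90 in SH and 4.80, 6.01, 4.83 and 4.51 in Gaighatta, with overlap, and cga, the shared subunit of glycoprotein hormones, 6.98, 8.33, 4.11 and 6.45 against 3.14, 5.55, 3.18 and 2.60. The differences of gh1 (3.59 ± 1.18, adjusted p = 0.0451) and cga (2.85 ± 0.90, adjusted p = 0.0377) were called, and that of prl, prolactin, was not (1.71 ± 0.62, adjusted p = 0.0705).

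SH F2 was the highest and SH M1 the lowest SH pool for all 4 hormones. The mean of the hormones was 7.24, 9.18, 4.32 and 6.44 in SH against 3.71, 4.75, 3.75 and 3.51 in Gaighatta. SH M1 thus lay below Gaighatta F2, and the strains overlapped. Without SH M1 all 4 were called, with a median difference of 3.91. Only pomca was called without SH F1, SH F2, SH M2, Gaighatta F1, Gaighatta M1 or Gaighatta M2, where the median was 2.33 to 3.03, and 2 were called without Gaighatta F2. The range of gh1 over the alternatives was 2.44 to 4.67 and that of cga 2.23 to 3.63. Both calls were also lost under a fitted mean-variance trend or unmoderated variances, and that of gh1 with the 8 arrays alone. Of 10 genes of the stress axis and steroid receptors, 2 were called, against 15.7% of all genes. These were pomca and cyp19a1b, both given above.

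Transcripts of skeletal muscle, which is not brain tissue, and of smooth muscle varied widely among pools of the same strain. The mean of 19 muscle markers was 8.83, 8.37, 6.62 and 8.71 in SH and 9.07, 6.05, 5.20 and 6.08 in Gaighatta, so Gaighatta F1 lay above all SH pools and the other 3 Gaighatta pools below them. All 19 differences were positive (median 1.76), and 2 were called, smyhc1, a slow myosin heavy chain (2.21 ± 0.63, 1.93 to 2.94 over the alternatives), and atp2a1, a calcium pump of muscle (1.86 ± 0.53, 1.61 to 2.30). The smyhc1 call was lost without SH F1, SH F2, SH M2, Gaighatta F2 or Gaighatta M1, and that of atp2a1 without SH F1, SH M2, Gaighatta F1, F2 or M1. Leaving out Gaighatta F1 gave 12 calls and a median of 2.71, and leaving out SH M1 as well gave 15 and 3.21, all higher in SH. Leaving out SH F1, SH M2 or Gaighatta M1 gave 0 calls (median 1.40, 1.45 and 1.1), and leaving out SH F2 or Gaighatta F2 gave 1. The fast myosin light chain gene mylpfa, for example, differed by 2.24 ± 1.06 and was not called (adjusted p = 0.162). myl13 (6.00, 6.10, 3.93 and 6.67 against 3.24 to 3.53) and myl10 (7.69, 8.15, 5.96 and 8.16 against 5.38 to 5.57) followed the muscle markers among SH pools, with M1 lowest, but Gaighatta F1 was not high for either.

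Other tissues at the border of the brain were measured as well. Of 18 epithelial and keratin genes 0 were called by limma and 1 had an unadjusted p under 0.05, with 0 called under unmoderated variances and 1 under array weights or without Gaighatta M2, although 15 differences were positive (median 0.47), and their mean was highest in SH M1 (7.32, against 6.07 to 6.14 in the other SH pools) and Gaighatta M2 (6.68, against 5.47 to 5.87). Meningeal and connective tissue genes had 4 of 15 called higher in SH and 2 higher in Gaighatta, with 3 calls without Gaighatta F2 and 2 without SH M1 and Gaighatta F1. The collagen gene col1a2 was higher in SH in the called probe set (8.07 to 9.04 against 6.12 to 7.87, 1.25 ± 0.34), a call lost without SH M2 or Gaighatta F2 (0.91 to 1.55), and not called in the other (0.94 ± 0.40). The matrix protein gene thbs3a was higher in SH by 0.86 ± 0.10 (adjusted p = 2.51e-05) and the fibronectin gene fn1b lower by -0.80 ± 0.14. The tight junction gene of brain vessels, cldn5a, read 2.73 to 2.96 in SH and 4.44, 4.23, 4.02 and 3.12 in Gaighatta (-1.14 ± 0.20), while the other 3 endothelial markers (kdrl, plvapb and tie1) had differences of -0.03 to -0.06. By limma and by their brightest probe sets, 0 of 11 eye, 2 pineal and 8 cartilage and bone markers were called. At an unadjusted p under 0.05 there were 0, 0 and 3, and 0 were called with unmoderated variances. The pineal marker tph1a was called higher in SH in its weaker probe set (0.33), but not in its brightest (0.16). Red cell markers had tspo higher (0.40 ± 0.11, lost without SH F2 and 0.35 to 0.45 over the alternatives) and blvrb lower in SH (-0.54 ± 0.12), and hbaa1, a globin, differed by -0.01 ± 0.14. The red cell marker ca2 was called lower in SH in 1 probe set (-1.12). Its brightest set, which stood for it in the list, differed by 0.21 and was not called.

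**Figure D4:**
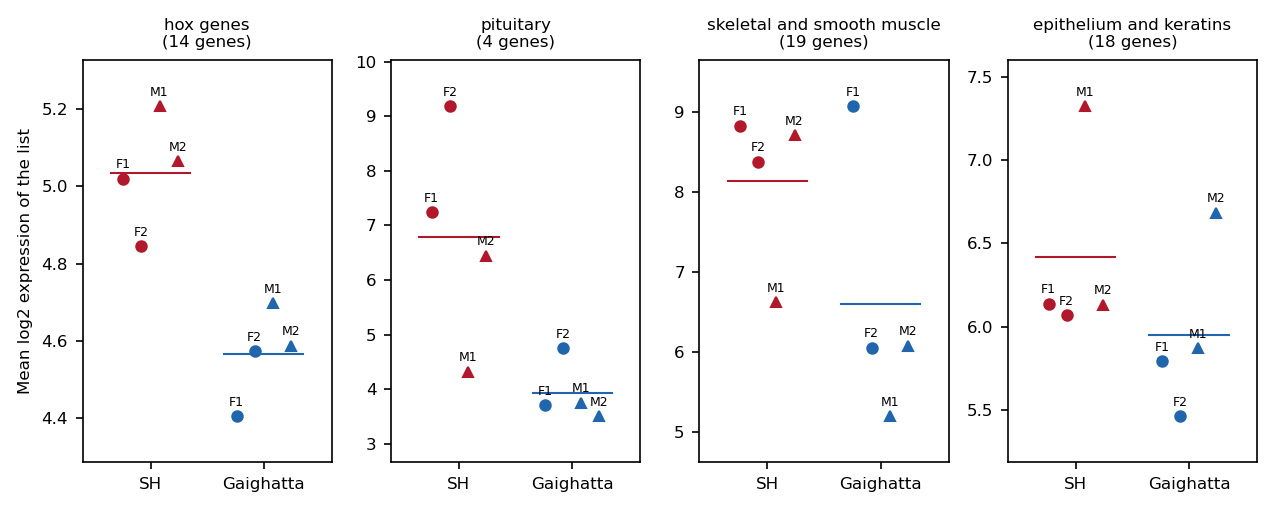
Mean log2 expression (y axis) of the hox, pituitary, muscle and epithelial lists in each SH (red) and Gaighatta (blue) pool, with circles for female and triangles for male pools and a line at the strain mean. The strains do not overlap for the hox genes, nor for some lists not drawn. SH M1 lies low for pituitary and muscle and high for keratins, and Gaighatta F1 lies at 9.07 for muscle.

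Of 55 genes of the respiratory chain and ATP synthase, 6 were called, all higher in SH, 41 differences were positive and the median was 0.11. atp5mea, an ATP synthase subunit, read 9.95, 10.16, 10.27 and 10.07 in SH and 7.87, 7.94, 8.24 and 8.46 in Gaighatta (1.98 ± 0.15, 3.95-fold, adjusted p = 1.77e-07). cox4i1l, a cytochrome c oxidase subunit, read 7.27 to 7.74 against 5.98 to 6.35 (1.39 ± 0.18, adjusted p = 6.91e-05). The other 4 called (ndufaf2, ndufs6, ndufs7 and atp5mc3b) differed by 0.29 to 0.46. The calls of ndufaf2 (0.37 to 0.60 over the alternatives), ndufs6 (0.33 to 0.44) and ndufs7 (0.27 to 0.40) were lost in leave-outs, the first without SH F1, SH M2 or Gaighatta M2, the second without SH F1, SH F2, Gaighatta F1, F2 or M1, and the third without SH M2, Gaighatta F1 or F2. The list had 3 calls without SH M2, Gaighatta F1 or Gaighatta F2. The 6 calls among 55 are below the 15.7% of all genes, and the mean of the list overlapped between the strains (9.20 to 9.34 in SH and 9.0 to 9.29 in Gaighatta). Of 46 mitochondrial ribosomal protein genes, 9 were called higher in SH and 3 lower (median 0.18), among them mrpl2 (0.57 ± 0.10) and mrpl20 (0.44 ± 0.09). Leaving out SH M1, SH M2 or Gaighatta F2 brought these 12 calls to 5, 4 and 6, and the list mean was 6.74 to 6.84 in SH and 6.55 to 6.79 in Gaighatta.

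Among the factors of protein synthesis and folding, 6 of 32 translation initiation factor genes were called, 4 higher in SH. eif3eb read 6.72 to 6.86 in SH and 5.68 to 5.83 in Gaighatta (1.08 ± 0.10, adjusted p = 1.98e-06). eif2s1a, the subunit through which stress kinases slow translation, read 5.74 to 5.84 in SH and 6.70 to 6.87 in Gaighatta (-0.97 ± 0.09, adjusted p = 1.75e-06). These 2 had SDs of at most 0.07 in either strain. Of 47 chaperone genes, 8 were higher in SH and 2 in Gaighatta. hspa12a, a distant member of the HSP70 family, read 6.65, 7.25, 8.0 and 8.33 in SH and 8.95 to 9.33 in Gaighatta (-1.50 ± 0.30), with the female SH pools lowest. hspa8b, a constitutive chaperone, was higher in SH by 0.52 ± 0.13, a call lost only without SH M1 and Gaighatta F1 together (0.41 to 0.59). The chaperone count was 6 without SH M2 and 3 without SH M1 and Gaighatta F1. Of 25 proteasome genes, 5 were higher in SH and 2 in Gaighatta (median 0.16), psmd10 by 0.52 ± 0.09, and the 7 calls fell to 3, 4, 3, 3, 4 and 4 without SH F2, SH M1, SH M2, Gaighatta F1, Gaighatta F2 and Gaighatta M2. Of 13 cytosolic ribosomal protein genes 1 was called, rps27l (-0.34, lost without SH F1, SH M1, SH M2, Gaighatta F1, F2 or M2 and -0.39 to -0.29 over the alternatives).

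Of 9 cryptochromes and photolyases, cry3b was higher in SH (0.68 ± 0.19) and cry5, a photolyase of light-induced DNA damage, higher in Gaighatta (-0.69 ± 0.17), and the call of cry3b was lost without SH F1, SH M2, Gaighatta F1 or Gaighatta F2 (0.49 to 0.79). Of 19 clock genes, fbxl3a, which targets cryptochromes for degradation, read 8.77 to 9.39 in SH and 8.41 to 8.51 in Gaighatta (0.60 ± 0.13), and its paralog fbxl3b differed by 0.43 ± 0.13. bhlhe40, a light-induced repressor, was higher in Gaighatta (-0.38 ± 0.12, -0.43 to -0.19 over the alternatives). The bhlhe40 call was lost without SH M1, SH M2, Gaighatta F1, F2 or M2, and that of fbxl3b (0.33 to 0.56) without SH F1, SH M1, Gaighatta F1, F2 or M2. Without SH M1, Gaighatta F1, Gaighatta F2 or Gaighatta M2, fbxl3a was the only clock gene called. The thyroid hormone receptor gene thrb read 4.54, 5.33, 4.85 and 5.88 in SH and 6.14 to 6.45 in Gaighatta (-1.18 ± 0.22, adjusted p = 0.00148), while dio2, which activates the hormone, differed by 0.29 ± 0.61. In dio2 the male pools were the higher ones in both strains (8.28 to 8.40 against 6.56 to 7.05 in SH females). Among 21 immediate early genes, which neurons induce on activity, fosab was higher in Gaighatta in 1 of 4 probe sets (-0.95 ± 0.28), a call lost without SH F1, SH M1, SH M2, Gaighatta F1 or Gaighatta F2 (-1.12 to -0.74), and the other 3 sets differed by -0.78, -0.42 and -0.48. nr4a2b was higher in Gaighatta (-0.55 ± 0.13), a call lost only without SH M1 and Gaighatta F1 together (-0.64 to -0.47).

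Further genes that the study names were called or not as follows. sec31a, a coat protein of vesicles that leave the endoplasmic reticulum, read 4.27 to 4.88 in SH and 5.12 to 5.55 in Gaighatta (-0.75 ± 0.14, adjusted p = 0.00193). eif4enif1, which carries the cap-binding protein eIF4E into the nucleus, was higher in SH (0.58 ± 0.12, adjusted p = 0.00418). eif1axa was lower in SH in 1 probe set (-0.57 ± 0.15, lost only without SH M1 and Gaighatta F1 together and -0.63 to -0.49 over the alternatives) and was not called in the other (0.20 ± 0.11). The co-chaperone gene dnajc12 (-0.56 ± 0.17) was called lower in SH, a call lost without SH F1, SH M1, Gaighatta F1, F2 or M2 (-0.67 to -0.41). ccdc93 (-0.39 ± 0.11) was also lower, and its call was lost without SH F2, SH M1, Gaighatta F1, M1 or M2 (-0.48 to -0.30). cyp1a, an enzyme induced by dioxin-like compounds, read 6.45, 6.95, 8.14 and 6.82 in SH and 5.32, 5.15, 7.06 and 8.07 in Gaighatta (0.69 ± 0.53, adjusted p = 0.413). igf1 (0.33 ± 0.30), gpx4a (-0.02 ± 0.14), casp2 (0.18 ± 0.18), caspb (0.13 ± 0.16 and 0.10 ± 0.20) and inhbaa (-0.03 ± 0.20 and -0.46 ± 0.23) were not called, nor were arg2 (-0.46 ± 0.20), col2a1a (0.48 ± 0.21), dnajc3a (0.26 ± 0.11), ccdc47 (-0.09 ± 0.08), eif1axb (0.05 ± 0.10) and kcnk1b (0.05 ± 0.12). Of 3 acyl-CoA binding protein genes, acbd3 (0.61 ± 0.12) and acbd4 (0.25 ± 0.08) were higher in SH, the second with a call lost without any of 6 single pools, SH F1, SH M1, SH M2 and Gaighatta F1, F2 and M1 (0.20 to 0.29).

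Redox and selenoprotein genes were called in both directions. selenop, the plasma carrier of selenium, read 10.25, 9.77, 9.52 and 10.04 in SH and 11.07, 11.06, 11.03 and 10.44 in Gaighatta (-1.0 ± 0.16, adjusted p = 0.00044). gpx1a, a glutathione peroxidase (0.62 ± 0.14), and txnrd3, a thioredoxin reductase (0.73 ± 0.12), were higher in SH, with SDs of 0.15 or less there. Of 19 selenoprotein genes, 4 were called higher in SH and 1 in Gaighatta. The 4 include selenoo1 by its probe set at 0.40, while its other set, at -0.77, was called higher in Gaighatta. The list had 3 calls in all without SH F1, SH M1, Gaighatta F1 or Gaighatta F2. Of 30 glutathione and redox enzymes 4 were higher in SH and 3 in Gaighatta, with 3 to 6 calls without any 1 pool and 3 without Gaighatta F2 or Gaighatta M1. Among 17 cytochrome P450 genes, cyp2aa6 had the largest difference, at 6.23 to 6.75 in SH and 4.83 to 4.94 in Gaighatta (1.60 ± 0.17, 3.03-fold, adjusted p = 8.46e-06). urod, an enzyme of heme synthesis, was higher in SH by 1.36 ± 0.18 (adjusted p = 5.33e-05).

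Signaling, cell death and genome maintenance genes completed the lists. Of 21 Wnt genes by their brightest probe set, 3 were called, all higher in Gaighatta, led by gsk3ba, the kinase that marks β-catenin for destruction (6.10 to 6.77 against 7.35 to 7.82, -1.1 ± 0.17), and dkk2, a secreted modulator (-0.57 ± 0.09). wls entered this list with a probe set that was not called. dedd1, a death effector domain protein, was higher in SH (8.28 to 8.89 against 6.75 to 7.55, 1.32 ± 0.19), and bnip3, a mitochondrial cell death and mitophagy protein, lower by -0.52 ± 0.11. Of 24 DNA repair genes, 5 were higher in SH and 2 in Gaighatta. rad23b, which delivers damaged DNA for excision repair, differed by 1.07 ± 0.14 in the called probe set and 0.11 ± 0.14 in the other, and xrcc6, a partner of end joining, by 0.50 ± 0.11, while neil1, a glycosylase, was lower in SH by -0.52 ± 0.10. Chromatin regulators were divided 6 to 6 among 79, with chd1l, a remodeling enzyme, at -0.96 ± 0.14. Of 77 solute carriers, 6 were higher in SH and 3 in Gaighatta. The phosphate transporter gene slc20a2 read 5.55, 5.92, 6.26 and 7.40 in SH and 4.52 to 4.89 in Gaighatta (1.60 ± 0.30), the transporter gene slc22a31 differed by 0.93 ± 0.15, and slc31a1, a copper importer, was lower in SH by -0.83 ± 0.21.

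The comparison was repeated in each sex, on 2 against 2 pools that the sexes do not share. In females 449 probe sets (5.67%) were called, 209 higher in SH, and in males 551 (6.96%), 242 higher in SH. Of these, 253 were called in both sexes, 56.3% of the female and 45.9% of the male calls, and all 253 had the same direction. Of the 449 female calls, 438 (97.6%) had the same sign in males, against 69.5% of all probe sets. No probe set passed the test of whether the difference depends on sex (0% called by limma, 376 at an unadjusted p under 0.05, smallest adjusted p 0.761). That smallest value was that of slc22a31, with differences of 1.34 in females and 0.52 in males. scamp5a differed by 4.04 in females and 3.98 in males, abat by 1.90 and 1.89, and eif3eb by 1.07 and 1.08. gh1 differed by 5.20 in females and 1.99 in males, and pomca by 4.43 and 2.19. The difference between the sexes was not called by limma (adjusted p = 0.936 for both). SH M1, the SH pool lowest in pituitary transcripts, is 1 of the 2 male SH pools, and its part in these values was not tested. Leaving out SH F1, SH F2, Gaighatta F1 or Gaighatta F2 gave 213, 241, 160 and 165 female calls, and leaving out SH M1, SH M2 or Gaighatta M2 gave 230, 206 and 152 male calls. The test between the sexes gave 5 calls without Gaighatta M1 and 2 without Gaighatta M2, where 1 male pool stood for Gaighatta and was assumed to vary like the others.

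**Figure D5:**
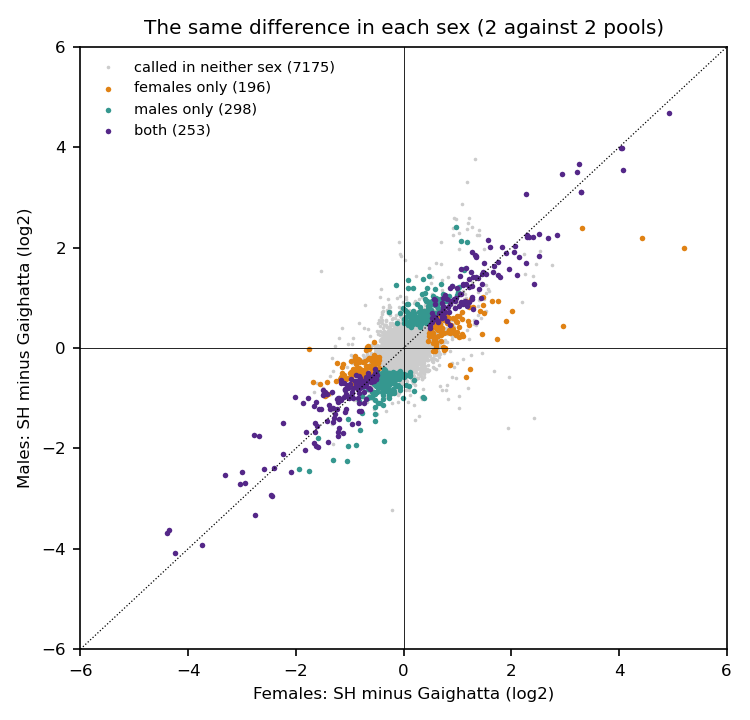
SH minus Gaighatta difference in males (log2, y axis) against that in females (x axis) for 7922 probe sets, coloured by the sex in which it was called. The 253 probe sets called in both sexes lie in the 2 quadrants of equal sign, and the dotted line marks equal differences.

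The strain means of the arrays labelled TM1 and Nadia place these differences. For 704 of the 1354 called probe sets (52.0%) both other strains were nearer the SH mean, for 257 (19.0%) both were nearer the Gaighatta mean, and for 393 (29.0%) they were split. Over all 7922 probe sets the shares were 42.6%, 25.7% and 31.7%. Among the 15 named genes higher in SH, both other strains were nearer SH in 11 and nearer Gaighatta in 1, ptgr1.1. Among the 15 higher in Gaighatta, they were nearer SH in 9 and nearer Gaighatta in 2. klhl41b is an instance of the first kind, at 4.02 and 4.27 in the arrays labelled TM1 and Nadia, close to the 3.71 of SH and away from the 6.76 of Gaighatta. cd99l2 is an instance of the second, at 8.50 and 8.80 against 7.42 in SH and 9.28 in Gaighatta. hoxb5b lay between, at 5.77 and 5.78 against 6.27 and 5.21. pomca was at 4.42 in the arrays labelled TM1 and 6.41 in those labelled Nadia. These shares are a description, since the called probe sets were chosen by the contrast between SH and Gaighatta.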

How the data were processed

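Biotinylated cRNA, made from 10 µg of total RNA of each brain pool, was hybridised to an Affymetrix Zebrafish Genome Array. The authors summarized the arrays by RMA with affy and deposited log2 values of 7958 probe sets. Tool versions: not given in the sources used here. The 36 controls were left out, except to read GFP and CFP. Of the 7922 tested, 5639 carry 1 gene symbol, 54 several and 2229 none (4922 genes). limma 3.58.1 in R 4.3.3 fitted a mean per labelled strain to the 16 arrays, with moderated variances, Benjamini-Hochberg adjustment over all probe sets and a threshold of 0.05, and a mean per strain and sex for the sexes. The study's probe-level polymorphism filter needs single probes and was not applied. The study used it on the same 7958 probe sets before its tests and removed a large share of them. The probe sets tested here therefore include ones that the study set aside for strain comparison. The fit was tested on simulated data. Named genes are the 15 largest in each direction with non-overlapping pools, up to 5 called per list of 34 pathway and 13 marker lists, the 3 largest each way without a symbol, genes whose probe sets disagree, and genes the study names. A gene's brightest probe set stood for it in lists. The comparison and lists were chosen with earlier results of these data known. Array medians were 6.08 to 6.20, and the number of arrays limits the precision. Up to 18 alternatives were tried for each result.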

Additional observations from a re-analysis of the deposited data

Results flagged for a closer look

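Among 378 sets of 4 pools examined, 18 had 1 pool further from the rest than the 95% limit of Dixon's test, and chance flags about 1 in 20 such sets. The epithelial and keratin mean was 7.32 in SH M1 against 6.07 to 6.14 in the other SH pools. In the same pool the slow myosin gene smyhc1 was low (3.24 against 5.87 to 6.17), as were the heme enzyme gene urod (5.84 against 6.16 to 6.20) and the glutamate receptor gene grik1a (5.45 against 5.66 to 5.69), while the photolyase gene cry5 was high (5.59 against 4.99 to 5.07). In SH F1 the globin gene hbaa1 (12.28 against 12.59 to 12.61), the protease gene ctsba (7.02 against 7.65 to 7.77) and caspb (4.23 against 4.59 to 4.64) were low, and nr4a2b was high (3.86 against 3.45 to 3.51). In SH F2 the S4_x_at set of cldng (5.00 against 6.40 to 6.59) and xrcc6 (6.99 against 7.47 to 7.51) were low.

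Among Gaighatta pools, M1 was low for aif1l (4.29 against 7.13 to 7.20) and myl13 (3.24 against 3.49 to 3.53). Gaighatta M2 was low for selenop (10.44 against 11.03 to 11.07) and high for hspa12a (9.33 against 8.95 to 8.98). Gaighatta F2 was high for myl10 (5.57 against 5.38) and ppdpfa (8.86 against 8.41 to 8.47), and F1 for eif3eb (5.83 against 5.68 to 5.70).

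The control probe sets for fluorescent proteins lay outside the comparison. The lowest Gaighatta pool read 8.58 and 7.23 in the GFP sets, where the other strains read at most 3.36 and 2.79, and 7.61 in the set for cyan fluorescent protein (CFP), where they read at most 3.57.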

How the results depend on the processing

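None of the 161 named probe sets called changed sign under an alternative. The larger side of the counts did change. Higher and lower calls in SH were 611 and 743, and 210 and 208 with the interquartile filter given next. The 2-fold calls turned from 106 and 92 to 94 and 98 without SH F2 and to 98 and 99 without SH M2. The female calls turned from 209 and 240 to 114 and 99 without SH F1, and the male calls from 242 and 309 to 87 and 78 without SH M1 and Gaighatta F1. The 1354 called probe sets became 1361 with the 8 arrays alone and 1466 with sex as a term. They were 1410 with repeated quantile normalization, 1443 with median centring, 1307 with a variance trend and 1269 with unmoderated variances. There were 999 above the first quartile of mean levels, 1988 with array weights, and 999 to 1149 without any 1 pool. An interquartile range of at least 0.5 left 854 probe sets to test and gave 418 calls. Of these, 363 did not overlap between the strains, against 388 of all 854 without a test. There were 279 calls in females and 254 in males. Genes with only some of their probe sets called were 9 in place of 125, from this smaller set of probe sets. A test of whether the difference exceeded 0.5 gave 129 calls. No 2-fold cut was applied to these, unlike the 198 2-fold calls. Array weights gave 1118 female calls, and unmoderated variances 290 female and 341 male calls. Without SH M1 and Gaighatta F1, chosen after seeing the data, there were 861 calls, 147 in females and 165 in males. Leaving out 1 pool gave 179 to 214 2-fold calls, 970 to 1119 without overlap, 160 to 478 in females, 152 to 490 in males, 0 to 5 that depended on sex, and 98 to 117 genes with unequal probe sets. The cause of these shifts was not tested. With the replicate block and sex the count was 1498. Deviations of same-numbered SH and Gaighatta pools from their group means correlated at 0.075 in females and 0.0011 in males. Whether pools of the same number were also handled together was not tested. Of 161 named probe sets called, 100 kept their call under every alternative and 61 lost it under at least 1. Low signal limits the size of differences near the floor.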
